A study of Homo sapiens with 6 samples.

Results

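Plasma membrane amino acid transport was read on the arrays of this series through 9 genes: SLC1A4, SLC1A5, SLC3A2, SLC7A1, SLC7A5, SLC38A1, SLC38A2, SLC43A1 and SLC1A3. They were chosen by name, and every probe set annotated to one of them was taken, 23 probe sets of 54675 on the array and 9 genes of 19775 with a probe set of their own. RNA came from HSC-3, a cell line of a human tongue squamous cell carcinoma. On 3 arrays it came from HSC-3 cells made to overexpress trypsin-2, labelled TAT-2, and on 3 arrays from HSC-3 cells carrying a control vector, labelled vector. All 6 cultures were grown for 48 h in the same serum medium with added L-glutamine, and cells of both groups were detached with trypsin before RNA was extracted. Whether each line was 1 clone or a pool of transfected cells, and whether the replicates of a group were separate cultures, the labels do not say, so every p-value here reflects the scatter of these 6 arrays, part of which may be technical.

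Amino acids cross the plasma membrane through carriers that differ in what they take and in what drives them. SLC7A5 (LAT1) exchanges large neutral amino acids such as leucine for glutamine, and reaches the cell surface bound to the heavy chain SLC3A2 (4F2hc, CD98). SLC1A5 (ASCT2), SLC38A1 and SLC38A2 bring in glutamine with sodium, and much work on carcinomas concerns this pairing of glutamine entry with leucine exchange, which feeds the growth kinase complex mTORC1. SLC7A1 carries arginine and lysine, and SLC1A3 carries glutamate and aspartate. Several of these genes, SLC38A2, SLC7A5, SLC3A2 and SLC7A1 among them, are textbook targets of ATF4, the transcription factor made when amino acids run short.

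The values are the authors' linear MAS5 signals, and differences are given on the scale of log2(signal + 16), which understates changes of dim probe sets. The brighter probe sets of PRSS2, which encodes trypsin-2, went against the label in replicates 2 and 3. The brightest gave 20.4, 13.8 and 14.6 in replicates 1, 2 and 3 labelled TAT-2, against 19.6, 80.8 and 83.2 in those labelled vector. A further PRSS2 probe set gave 19.9, 17.9 and 19.5 in the arrays labelled TAT-2, against 22.6, 38.0 and 54.5 in those labelled vector. A last one, annotated to PRSS2 and PRSS1 together, gave 2.20 to 3.56 in the arrays labelled TAT-2 and 0.816 to 1.41 in those labelled vector, all far below the filter on low signals given below. Whether any of these probe sets reads the introduced sequence, and whether labels were exchanged, was not tested. Directions below therefore rest on the labels alone. The arrays also divided by replicate number: replicate 1 of both groups lay apart from replicates 2 and 3 on the first principal component, which held 45.6% of the variance, and the groups parted on the second, with 21.7%. For ACTB, the 3' over 5' signal on the log2 scale was 0.21 and 0.25 on the replicate 1 arrays labelled TAT-2 and vector, and 0.46 to 0.59 on the other 4, and a control probe set of 28S ribosomal RNA gave 299 to 335 on replicate 1 and 798 to 918 on the others.

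Of 10 squamous epithelial markers 7 were on the array under a probe set of their own and all 7 were tested, from DSG3 at 152 to 197 up to SFN at 8145 to 9210 over the 6 arrays. With the replicate number as a block limma called 2 of the 7 lower in the arrays labelled TAT-2, beside 3.46% of all tested genes. These were the adhesion genes CDH1 (-0.44 on the log2 scale, limma adjusted p = 0.00826) and EPCAM (-0.45, limma adjusted p = 0.0166). The 7 did not move as a set: 4 had a log2 difference above 0, and their median was 0.012. Without the block limma called 0 of the 7, with 1 at an unadjusted p under 0.05. A blocked limma fit in which the variance did not follow intensity called 0 of all genes. Of 8 fibroblast markers 3 were tested, and the 8 summed to 152 to 158 in the arrays labelled TAT-2 and 132 to 157 in those labelled vector, with COL1A1 the brightest at 67.8 to 101. Of 5 leukocyte markers on the array 2 were tested, and the 5 summed to 45.1 to 113 in the arrays labelled TAT-2 and 46.5 to 83.2 in those labelled vector. Of these CD14 gave 14.0, 79.5 and 54.4 in replicates 1, 2 and 3 labelled TAT-2, against 9.15, 38.3 and 22.3 in those labelled vector. Of 6 endothelial markers 1 was tested, PECAM1 at 28.6 to 37.5, and the 6 summed to 49.0 to 65.2 in the arrays labelled TAT-2 and 44.7 to 55.6 in those labelled vector. PTPRC, CDH5 and PDGFRB stayed at or below 8.17, while DCN gave 16.8 to 31.6, THY1 9.25 to 28.4, ITGAM 4.34 to 23.1 and CD3E 10.2 to 16.3. The part of these markers in the results was not tested.

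No transporter gene differed between the arrays labelled TAT-2 and those labelled vector by a margin that passed the test. Each gene was represented by its brightest tested probe set, and limma called 0 of 9, beside 0.0576% of 12151 tested genes called in either direction (adjusted p under 0.05). At an unadjusted p under 0.05 there were also 0 of 9, beside 9.38% of all tested genes. With the replicate number as a block limma again called 0 of 9, beside 6.96% of all genes, and 0 of 9 had an unadjusted p under 0.05, beside 22.3%. Groups free of overlap were found for 0 of 9, against 15.7% of all tested genes. The median log2 difference was 0.027 over the 9 genes and -0.0025 over all tested genes, with 6 of the 9 above 0 and 3 below. Of the 23 probe sets 17 passed the filter on low signals, a mean over the 6 arrays at or above a signal of 15.2, and every gene had at least 1 among them. Limma called 0 of these 17 in either fit, where 0.0293% of all tested probe sets were called without the block and 5.21% with it. At an unadjusted p under 0.05 there was 1 of the 17 without the block and 2 with it, all of them SLC38A2. The share of all probe sets at that unadjusted level was not counted. By gene it was the 9.38% and 22.3% given above.

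**Figure D1:**
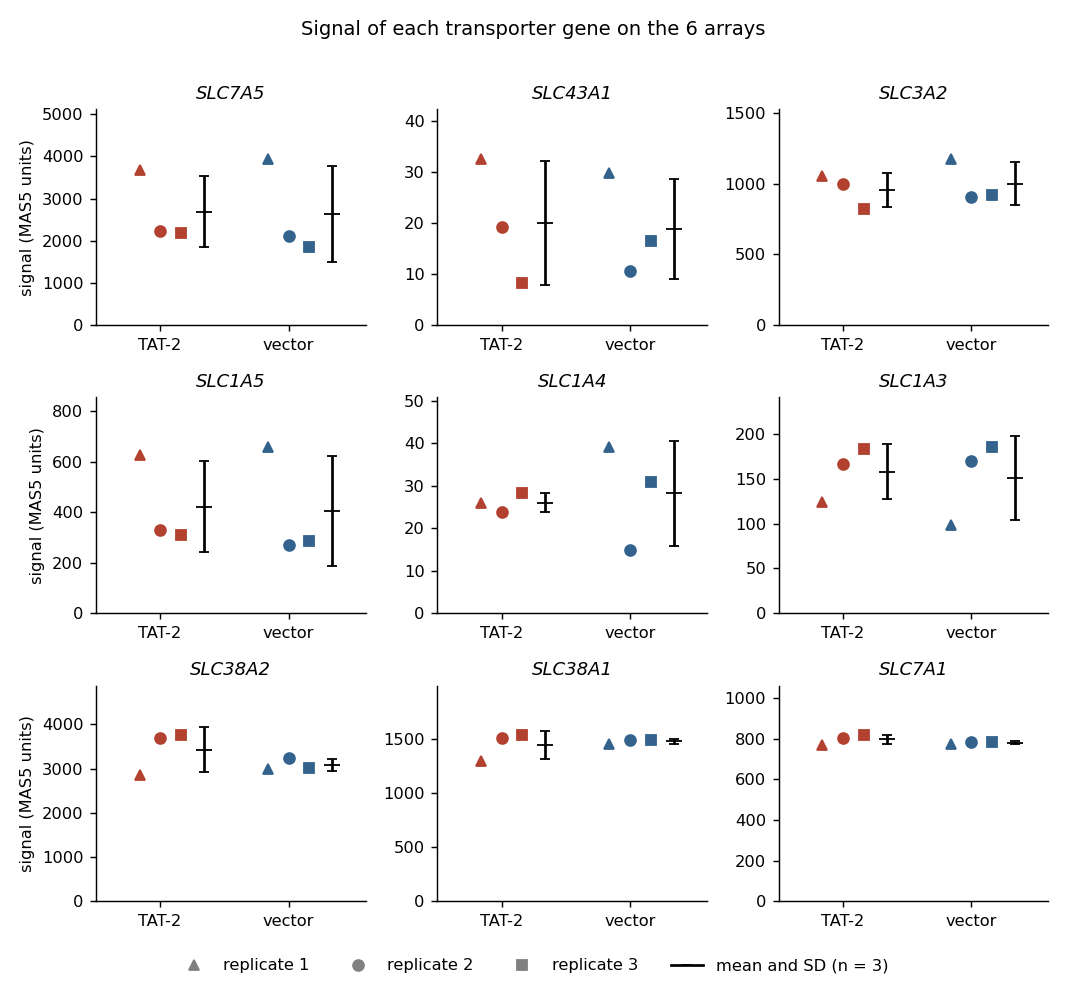
Signal of the brightest tested probe set of each transporter gene, in MAS5 units on a linear axis from 0, on the 3 arrays labelled TAT-2 (left) and the 3 labelled vector (right). Symbols mark the replicate number, and black bars the mean and SD of 3 arrays. SLC7A5 and SLC1A5 were highest on replicate 1 of both groups (3669 and 3934, and 629 and 658), while SLC7A1 stayed between 771 and 817 on all 6 arrays.

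The leucine exchanger SLC7A5 was bright and differed far more by replicate number than by label. Its single probe set gave 3669, 2223 and 2191 in replicates 1, 2 and 3 labelled TAT-2, and 3934, 2109 and 1843 in those labelled vector. The high array of each group was replicate 1, and the groups overlapped. Its mean was 2694 ± 844 in the arrays labelled TAT-2 and 2629 ± 1138 in those labelled vector (SD, n = 3 each), a log2 difference of 0.074 ± 0.29 (SE) with a limma adjusted p of 0.988. The 95% interval ran from -0.60 to 0.74 without the block and from -0.090 to 0.24 with it (limma adjusted p = 0.677). By number the difference was -0.10, 0.075 and 0.25 in replicates 1, 2 and 3.

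Its heavy chain partner SLC3A2, which carries the light chains to the cell surface, moved less between replicates. It gave 1055, 996 and 824 in the arrays labelled TAT-2, against 1173, 908 and 918 in those labelled vector. The ranges overlapped, and replicate 1 was the highest of each group by a smaller margin than for SLC7A5. The log2 difference was -0.058 ± 0.14 (SE; limma adjusted p = 0.981), with a 95% interval from -0.37 to 0.25, or from -0.22 to 0.10 with the block.

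SLC43A1 (LAT3), a carrier of large neutral amino acids that needs no heavy chain, was read near the filter level. Its signals were 32.5, 19.2 and 8.35 in the arrays labelled TAT-2 and 29.7, 10.6 and 16.5 in those labelled vector. Replicate 1 was again the highest of each group, and replicates 2 and 3 differed by 0.41 and -0.41 (log2). The mean of replicates 2 and 3 was 13.7, below the filter, so the gene was tested only through its replicate 1 arrays. The mean difference was 0.026 ± 0.29 (SE; limma adjusted p = 0.996), and its 95% interval ran from -0.64 to 0.70.

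Among the glutamine and neutral amino acid carriers of the SLC1 family, SLC1A5 had the pattern of SLC7A5. It gave 629, 329 and 311 in replicates 1, 2 and 3 labelled TAT-2, against 658, 271 and 287 in those labelled vector. Replicate 1 was about the same in both groups and stood clear of the other 4 arrays. The log2 difference was 0.10 ± 0.36 (SE; limma adjusted p = 0.985), and the SE was 0.081 with the block (limma adjusted p = 0.569). Within replicates 2 and 3 alone it was 0.19 (limma adjusted p = 0.476).

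SLC1A4 (ASCT1), which carries serine, alanine and cysteine, was dim: 1 of its 5 probe sets passed the filter. That probe set, with a name ending in _x_at and so open to related sequences, gave 25.9, 23.8 and 28.3 in the arrays labelled TAT-2, against 39.1, 14.8 and 31.0 in those labelled vector. The arrays labelled vector spanned the whole range of those labelled TAT-2. Its log2 difference was -0.037 ± 0.23 (SE; limma adjusted p = 0.992). The 4 untested probe sets of SLC1A4 had group means from 7.70 to 20.7 in the arrays labelled TAT-2 and from 8.61 to 15.1 in those labelled vector. In 1 of them the groups did not overlap, with 12.1 to 12.3 in the arrays labelled TAT-2 and 14.3 to 15.7 in those labelled vector. Another ran the opposite way with overlap, at 10.9, 29.2 and 22.1 in the arrays labelled TAT-2, against 10.8, 2.31 and 12.7 in those labelled vector. The rest overlapped, with means of 7.70 and 8.25 in the arrays labelled TAT-2, against 12.3 and 9.48 in those labelled vector.

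SLC1A3 (EAAT1, GLAST), the glutamate and aspartate carrier best known from glia, ran the other way by replicate number. It gave 124, 166 and 184 in replicates 1, 2 and 3 labelled TAT-2, against 98.0, 170 and 185 in those labelled vector. Replicate 1 was the lowest array of each group, and at numbers 2 and 3 the groups lay close together. The log2 difference was 0.084 ± 0.23 (SE; limma adjusted p = 0.983), of which replicate 1 gave 0.30 and replicates 2 and 3 gave -0.032 and -0.011. A further, dimmer SLC1A3 probe set gave 24.5 to 40.2 in the arrays labelled TAT-2 and 24.1 to 31.3 in those labelled vector.

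SLC38A2 (SNAT2), the sodium-coupled carrier of small neutral amino acids and glutamine, came nearest to a difference. Its 3 probe sets were all bright and all higher on average in the arrays labelled TAT-2, by log2 differences of 0.14, 0.27 and 0.19. The brightest gave 2851, 3691 and 3752 in replicates 1, 2 and 3 labelled TAT-2, against 2988, 3239 and 3015 in those labelled vector. Replicates 2 and 3 labelled TAT-2 lay above every array labelled vector, and replicate 1 labelled TAT-2 lay below them all. Limma's adjusted p for that probe set was 0.880, or 0.370 when replicates were blocked.

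Another SLC38A2 probe set gave 2556, 3175 and 3044 in the arrays labelled TAT-2, against 2420, 2484 and 2331 in those labelled vector. Here the groups did not overlap. Its log2 difference was 0.27 ± 0.096 (SE; limma adjusted p = 0.516, unadjusted p = 0.0216), and with the block the adjusted p was 0.0613. By number the difference was 0.078, 0.35 and 0.38 in replicates 1, 2 and 3, and in replicates 2 and 3 alone it was 0.37 (limma adjusted p = 0.0520). The last SLC38A2 probe set gave 2291, 3001 and 2957 in the arrays labelled TAT-2, against 2219, 2523 and 2437 in those labelled vector. Its arrays overlapped, at a limma adjusted p of 0.799, and 0.154 with the block. The names of 2 of these probe sets end in _x_at and that of the last in _s_at. The signals of the 3 correlated across the 6 arrays with r from 0.88 to 0.97. All 3 were read on the same 6 arrays, so they are not taken as independent evidence of a difference.

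SLC38A1 (SNAT1), which lies beside SLC38A2 on chromosome 12 (46183063 to 46269043, against 46358188 to 46372773, GRCh38.p14), had a mean difference nearer to 0 on its brightest probe set. It gave 1292, 1508 and 1533 in the arrays labelled TAT-2, against 1450, 1490 and 1488 in those labelled vector. As for SLC38A2, replicates 2 and 3 labelled TAT-2 lay above every array labelled vector and replicate 1 labelled TAT-2 below them all, by smaller margins. The log2 difference was -0.035 ± 0.093 (SE; limma adjusted p = 0.981). The next SLC38A1 probe set, at 1192, 1320 and 1351 in the arrays labelled TAT-2 and 1228, 1266 and 1230 in those labelled vector, had the opposite sign (0.050 ± 0.086, SE; limma adjusted p = 0.965), and 1 more stood at 0.031. The untested SLC38A1 probe set gave 3.62 to 5.87 in the arrays labelled TAT-2 and 4.20 to 19.4 in those labelled vector.

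SLC7A1 (CAT1), the arginine and lysine carrier, was even across the arrays. Its brightest probe set gave 771, 802 and 817 in the arrays labelled TAT-2, against 773, 784 and 786 in those labelled vector. The 6 values lay within a narrow band and the groups overlapped. The log2 difference was 0.027 ± 0.085 (SE; limma adjusted p = 0.985), and the 95% interval, from -0.17 to 0.22, was the narrowest of the 9 genes. The other 3 tested SLC7A1 probe sets had differences of 0.0066, 0.13 and -0.062, on mean signals of at most 91.4 in either group, and across the 6 arrays the 4 correlated with r from -0.77 to 0.88. The untested SLC7A1 probe set, far below the filter, gave 4.20 to 8.68 in the arrays labelled TAT-2 and 2.11 to 3.62 in those labelled vector, with no overlap.

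**Figure D2:**
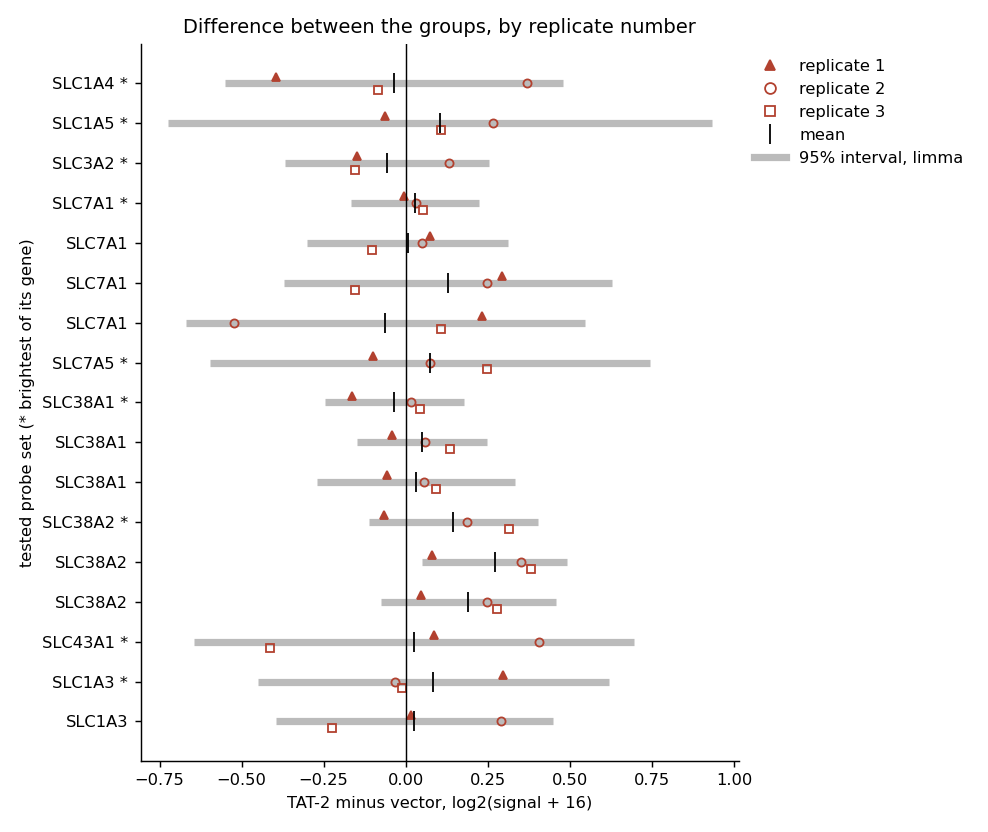
Difference between arrays labelled TAT-2 and vector on the log2(signal + 16) axis for each of the 17 tested probe sets, by replicate number (symbols), with the mean (tick) and limma's 95% interval without the block (grey bar). Among the 17, only the SLC38A2 probe set at 0.27 has an interval that leaves out 0, and its replicates 1, 2 and 3 lie at 0.078, 0.35 and 0.38.

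SLC38A2 had the largest mean difference of the 9 genes by size, and the 3 genes whose brightest probe set followed it most closely across the 6 arrays were SELENOI (Pearson r = 0.998), HDAC1 (r = 0.998) and YWHAG (r = 0.997), with a Spearman rho of 1 each. SELENOI makes phosphatidylethanolamine, HDAC1 is a histone deacetylase and YWHAG a 14-3-3 protein. Their own log2 differences were 0.070, 0.067 and 0.068, so the likeness lies in the order and spacing of the arrays and not in size. These r values are over 6 arrays that share their replicate numbers, and they were picked as the highest of 12151 genes.

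The arrays were also compared by replicate number. Replicate 1 was set against the mean of replicates 2 and 3 within each group, and a gene was counted where it was higher by 0.5 or more (log2) in both groups. SLC1A5 was higher on replicate 1 by 0.94 in the arrays labelled TAT-2 and 1.19 in those labelled vector. SLC7A5 was higher by 0.73 in the arrays labelled TAT-2 and 0.99 in those labelled vector. Of all tested genes 5.68% passed that size upward and 2.12% downward, and of the 9 transporters 0 passed it downward. SLC43A1, at 0.73 in the arrays labelled TAT-2 and 0.64 in those labelled vector, is not counted with SLC1A5 and SLC7A5, since it passed the filter only through replicate 1. The 5.68% may hold such genes too, so it is given as a description. SLC1A3 lay just outside the lower limit, at -0.44 in the arrays labelled TAT-2 and -0.76 in those labelled vector, and SLC1A4 passed the size in the arrays labelled vector alone, at -0.0040 in those labelled TAT-2 and 0.53 in those labelled vector. Of the other genes, given here with arrays labelled TAT-2 before those labelled vector, SLC3A2 (0.22 and 0.36), SLC7A1 (-0.070 and -0.022), SLC38A1 (-0.23 and -0.037) and SLC38A2 (-0.38 and -0.064) stayed under the size. Over all tested genes the median shift of replicate 1 was 0.014 in the arrays labelled TAT-2 and 0.0085 in those labelled vector. No test was run on this shift, since replicate 1 was known to stand apart on these same arrays, and the part of the lower ACTB ratio and lower 28S signal of replicate 1 in it was not tested.

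**Figure D3:**
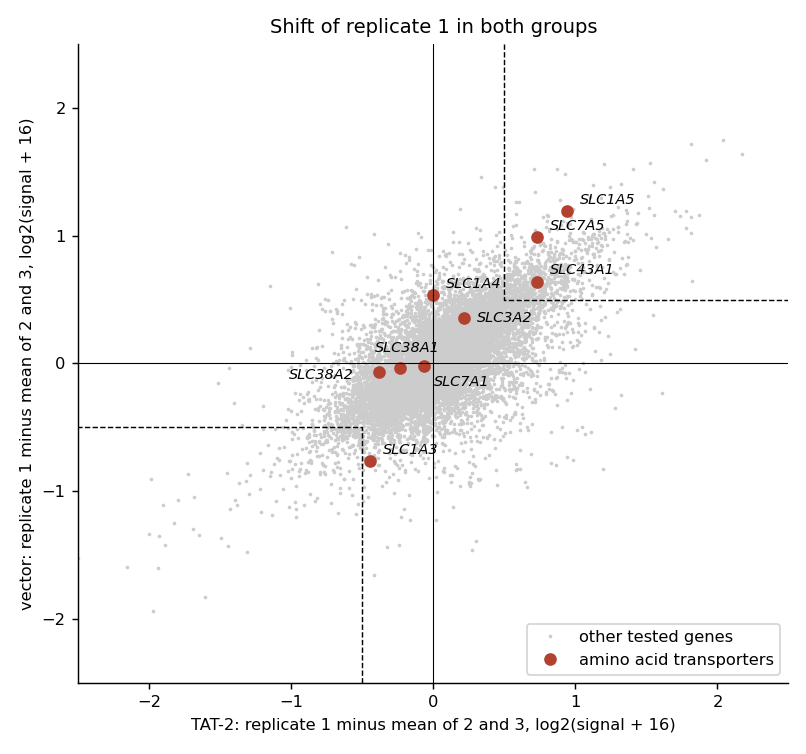
Replicate 1 minus the mean of replicates 2 and 3, on the log2(signal + 16) scale, in the arrays labelled TAT-2 (horizontal axis) and labelled vector (vertical axis) for every tested gene (grey) and the 9 transporters (red). Dashed lines mark 0.5 in both groups, and 3 genes lie outside the axes, which end at 2.5. SLC1A5, SLC7A5 and the dim SLC43A1 lie in the upper right corner, and SLC1A3 at -0.44 and -0.76.

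Promoter sequence was read for the 9 genes from RefSeq windows of GRCh38.p14, each from 250 bases before to 50 after an annotated start, 18 windows in all since several genes have more than 1 start. The E-box CACGTG, read on both strands, was in a window of SLC1A5, SLC7A5 and SLC43A1 and of no other of the 9. It occurs in 7.26% of all such windows, in 8.77% of all genes with a window and in 12.6% of the tested ones. Of these 3 genes SLC1A5 and SLC7A5 are past the replicate 1 size. SLC43A1 is past it too, but it passed the filter only through its replicate 1 arrays and is not counted with them. Of the 565 tested genes with a window that were past it upward in both groups, 13.3% hold an E-box. A link between the E-box and replicate 1 was not tested. The 30 bases around each match are shown because these are the 3 of the 9 genes that hold an E-box, in the direction of each gene, with the E-box in capitals. The SLC7A5 and SLC43A1 matches lie 130 and 112 bases before the first start, and the SLC1A5 match lies 50 bases before a start inside the gene. A match is a run of letters, and nothing here shows that a factor bound it.
SLC7A5, chr16:87869620-87869649, minus strand: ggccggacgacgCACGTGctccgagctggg
SLC43A1, chr11:57515797-57515826, minus strand: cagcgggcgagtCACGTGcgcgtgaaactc
SLC1A5, chr19:46787326-46787355, minus strand: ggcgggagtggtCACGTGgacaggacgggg

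The C/EBP-ATF response element, through which ATF4 acts, was searched as TGATGNAA on both strands. It was found in a window of 6 of the 9 genes (SLC1A4, SLC1A5, SLC3A2, SLC7A1, SLC38A1 and SLC1A3). By gene the share was 4.46% of all genes with a window and 2.85% of the tested ones, and by window it was 3.62%. The 9 genes hold 18 windows, and a gene with more windows has more places for a match. The genes were partly chosen as a family with known ATF4 targets, so the 6 of 9 is a description of the family. The matches are shown because they are the sequence feature most members have in common, in the direction of the gene and with the match in capitals. Those of SLC1A4 and SLC3A2 are on the opposite strand. Those of SLC7A1 and SLC1A3 lie in the window of the gene's first start, beginning 7 bases after it and 220 bases before it. The other 4 lie in the window of a start inside the gene.
SLC1A4, chr2:64989381-64989410, plus strand: gcggctcccgtTTGCATCAtctccagccgg
SLC1A5, chr19:46784893-46784922, minus strand: gaggaagtggcTGATGCAAgctgtccaggg
SLC3A2, chr11:62881719-62881748, plus strand: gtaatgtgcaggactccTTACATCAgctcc
SLC7A1, chr13:29595663-29595692, minus strand: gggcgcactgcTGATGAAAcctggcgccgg
SLC38A1, chr12:46266502-46266531, minus strand: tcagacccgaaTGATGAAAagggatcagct
SLC1A3, chr5:36596357-36596386, plus strand: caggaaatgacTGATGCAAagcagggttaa

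The core of the antioxidant response element, searched as TGACNNNGC on both strands, was in a window of 5 of the 9 (SLC1A5, SLC3A2, SLC7A1, SLC7A5 and SLC1A3). By gene the share was 16.1% of all genes with a window and 19.6% of the tested ones, and by window it was 13.3%. The single window of SLC38A2 held none of the 3 motifs, which says only that these letters are not in it. Its 250 bases before the start are shown, in lower case throughout, because SLC38A2 is the gene whose probe sets came nearest to the threshold.
SLC38A2, chr12:46372774-46373023, minus strand: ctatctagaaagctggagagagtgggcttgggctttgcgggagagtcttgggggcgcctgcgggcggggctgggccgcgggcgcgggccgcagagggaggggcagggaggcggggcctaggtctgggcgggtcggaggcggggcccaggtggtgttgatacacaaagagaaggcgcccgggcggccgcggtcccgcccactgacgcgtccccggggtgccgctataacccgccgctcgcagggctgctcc

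Other amino acid transporters were read from a wider list. Of 42 further carriers 19 were tested, and with the block limma called 1 higher and 2 lower in the arrays labelled TAT-2, where 3.50% and 3.46% of all genes were called higher and lower. Without the block it called 0 of 19, with 3 at an unadjusted p under 0.05, beside 9.38% of all genes. SLC7A11 (xCT), which exchanges cystine for glutamate and shares the heavy chain SLC3A2 with SLC7A5, gave 311, 261 and 299 in the arrays labelled TAT-2, against 851, 478 and 800 in those labelled vector. The groups did not overlap, and SLC7A11 fell by 1.21 on the log2 scale (SE 0.10 with the block, limma adjusted p = 0.000161, and 0.104 without the block). With the block 2 further SLC7A11 probe sets were called lower too.

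SLC6A6, the taurine carrier, gave 77.5, 73.5 and 82.5 in the arrays labelled TAT-2, against 143, 144 and 145 in those labelled vector. It fell by 0.77 on the log2 scale with no overlap (limma adjusted p = 0.00251 with the block, and 0.0847 without it), although a further tested probe set of it ran the opposite way, and with its probe sets averaged the call was lost (-0.36, limma adjusted p = 0.257 with the block). SLC6A15, a carrier of neutral amino acids, had signals of 26.2 to 41.3 in the arrays labelled TAT-2 and 7.15 to 19.1 in those labelled vector, whose mean of 12.2 lay below the filter, so it was tested only through the arrays labelled TAT-2. Its log2 difference was 0.84 (limma adjusted p = 0.0460 with the block, and 0.268 without it). A filter passed through 1 group alone favours such a call, so the 1 higher of this list is a description. With no filter the call was lost (limma adjusted p = 0.226 with the block). It was also lost without replicate 1 (adjusted p = 0.208) and without replicate 3 (adjusted p = 0.103) in the blocked limma fit. The list's median log2 difference was -0.024.

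**Figure D4:**
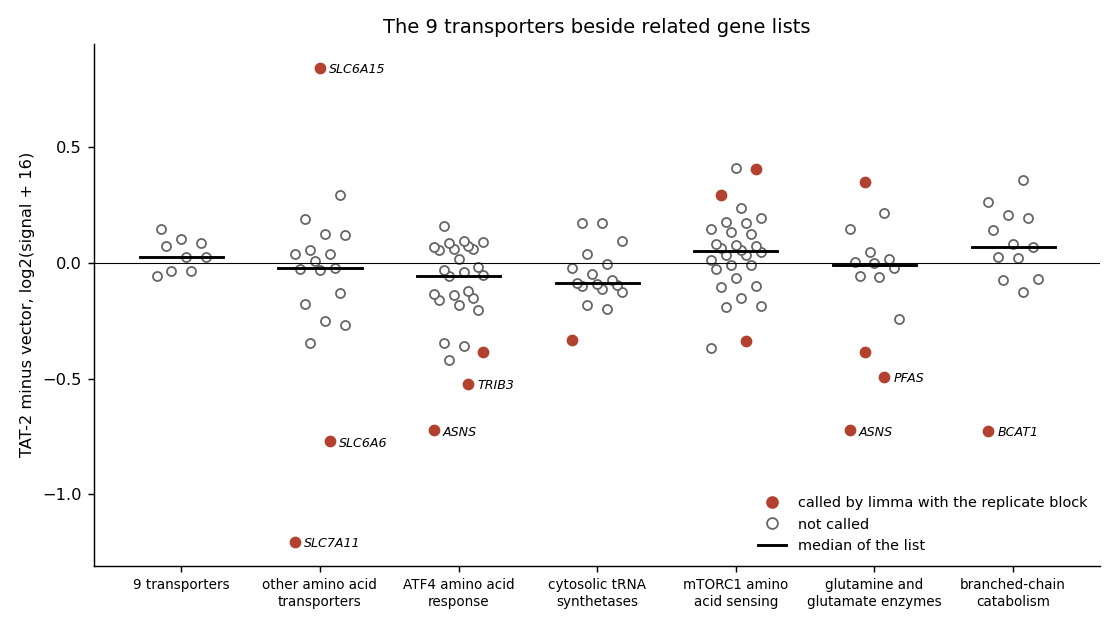
Log2(signal + 16) difference between arrays labelled TAT-2 and vector for the 9 transporters and the tested genes of 6 related lists. Filled points were called by limma with the replicate block, open points were not, and bars mark medians. The 9 transporters lie between -0.058 and 0.14 with none filled, while SLC7A11 lies at -1.21.

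Of 28 tested genes of the ATF4 amino acid response, limma with the block called 0 higher and 3 lower, beside 3.50% and 3.46% of all genes. Without the block it called 0, and 3 had an unadjusted p under 0.05, beside 9.38%. ASNS, asparagine synthetase, gave 130, 151 and 158 in the arrays labelled TAT-2, against 244, 248 and 263 in those labelled vector. Its groups did not overlap, and it fell by 0.72 (log2; limma adjusted p = 0.00104 with the block, and 0.102 without it). TRIB3, a pseudokinase induced by ATF4, fell by 0.52 with the block, and PSAT1, of serine synthesis, by 0.39. The list's median was -0.056. By replicate number this list went both ways. By the size used above 3 genes were higher on replicate 1 (SESN2, CHAC1 and PPP1R15A), beside 5.68% of all genes. Another 3 were lower (DDIT4, ATF3 and ALDH18A1), beside 2.12%. CHAC1 had a mean of 14.2 on replicates 2 and 3, below the filter, so like SLC43A1 it was tested only through replicate 1.

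Genes that use or sense the carried amino acids were read from 4 further lists, where 6.96% of all genes were called with the block in either direction. Of 14 tested enzymes of glutamine and glutamate, limma with the block called GLUL, glutamine synthetase, higher by 0.35, and PFAS, of purine synthesis, lower by 0.49, beside ASNS and PSAT1, which this list also holds. GLUL gave 906, 918 and 925 in the arrays labelled TAT-2, against 703, 734 and 711 in those labelled vector, with no overlap (limma adjusted p = 0.00975 with the block, and 0.249 without it). Of 13 tested enzymes of branched-chain amino acid breakdown 1 was called, BCAT1, the cytosolic aminotransferase of leucine, at 181, 206 and 244 in the arrays labelled TAT-2, against 282, 388 and 410 in those labelled vector. BCAT1 fell by 0.72 with no overlap (limma adjusted p = 0.000786 with the block, and 0.225 without it).

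Of 17 tested cytosolic tRNA synthetases AARS1, for alanine, fell by 0.33 with the block, beside 6.96% of all genes called in either direction. Of 30 tested genes of amino acid sensing by mTORC1, LAMTOR2 (0.40) and SAR1B (0.29) rose and SEH1L (-0.34) fell with the block, beside the same 6.96%. For SAR1B 2 of 4 further tested probe sets ran the opposite way. Without the block limma called 0 genes in each of these 4 lists, with 5, 1, 1 and 3 at an unadjusted p under 0.05 for glutamine, branched-chain, synthetase and sensing genes, beside 9.38% of all genes. The medians were -0.010, 0.070, -0.086 and 0.051 in that order. All of the 13 calls named in the 6 lists depend on letting the variance follow intensity: a blocked limma fit with no such trend called 0 of all genes. With 1 replicate number left out of the blocked limma fit, SLC7A11, SLC6A6, ASNS, TRIB3, PFAS and BCAT1 were called each time. With a gene's probe sets averaged, SLC6A6, SLC6A15, PSAT1 and SAR1B were not called (limma adjusted p = 0.0503 to 0.257 with the block). PSAT1 was not called without number 1 (adjusted p = 0.0692) or 2 (0.0641), SEH1L without 1 (0.0824) or 2 (0.0885), AARS1 without 2 (0.118) or 3 (0.102), LAMTOR2 without 1 (0.241) or 3 (0.0523), and GLUL without 2 (0.0540). SAR1B was not called with any of the 3 left out (adjusted p = 0.0639 to 0.104). In the list of sensing genes 4 were higher on replicate 1 by the size used above (MLST8, TSC2, RRAGA and FLCN) and 1 was lower (FNIP1), beside 5.68% and 2.12% of all genes.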

How the data were processed

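RNA of 6 HSC-3 cultures was hybridised to Affymetrix arrays, 2 µg per array. The authors deposited linear intensities, summarised as MAS5 signals per the submitters' processing notes, which give no version. Between percentiles 2 and 98 the mean signal was 99.99 on each array, and this scaling by the authors was left as it was. The array holds 54675 probe sets (62 controls). A single symbol stands beside 41097 of them in the platform annotation, more than 1 beside 1801 and none beside 11777, and gene identifiers tied 41043 single symbols to a GRCh38.p14 table.

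Signals were transformed as log2(signal + 16), and probe sets with a mean at or above the median (4.96) were kept (27307). The contrast TAT-2 minus vector was tested in limma 3.58.1 under R 4.3.3, using eBayes with an intensity trend, and adjusted by Benjamini-Hochberg over all probe sets kept, at 0.05. A gene was represented by its kept probe set of highest mean. With 3 arrays a group, precision is limited by their number. The fit was tested on simulated data.

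Same-numbered arrays deviated together from their group means (r = 0.64, 0.39 and 0.25 for numbers 1, 2 and 3), and on that ground the replicate number from the titles served as a block in a second fit. Arrays of different number reached 0.32 too, so numbers 2 and 3 may not pair arrays.

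The members and gene lists were chosen with earlier results of these data known. Every member probe set is described, by values or by range. From each list up to 4 genes called by either fit were named by size. Genes past the replicate 1 size were named after their values were seen. Other settings tried were pseudocounts of 1 and 64, no filter or one at percentiles 30 and 70, quantile normalization, centred medians, no trend, the block, a batch factor for replicate 1, averaged probe sets per gene, omission of _x_at and _s_at probe sets, and omission of each array or of replicate 1.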

Additional observations from a re-analysis of the deposited data

How the results depend on the processing

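Limma called 0 of the 9 transporter genes, of which 5 to 9 were tested, under all 19 alternatives to the fit without the block and under all 12 to the fit with the replicate block, and 0 of their probe sets under all 17 alternatives tried for probe sets. Single arrays were left out in the fit without the block (0 to 0) and whole replicate numbers in the blocked fit (0 to 0). Without TAT-2 replicate 2 or 3 or vector replicate 2 or 3, limma called 0 of all tested genes too, and with no trend and no block 4. The 0 transporters there say little, and so does the 0 of the fit without the block, which called 7 of all tested genes. Over all tested genes the same settings called 7 without the block, 846 with the replicate block, 747 with the batch factor, 196 without replicate 1 of both groups, 31 with _x_at and _s_at probe sets left out, 29 with averaged probe sets per gene and 20 with medians centred. With the block and no filter 270 were called, with the block and no intensity trend 0. In the last fit 0 of the 9 had an unadjusted p under 0.05. SLC7A1 and SLC38A2 kept their sign under all alternatives that gave them a value (leaving out _x_at and _s_at probe sets gave SLC38A2 none), SLC38A2 at 0.075 to 0.27. The signs of the other 7 turned when arrays were left out. Over those settings the log2 difference ran from -0.28 to 0.14 for SLC1A4, -0.21 to 0.50 for SLC1A5, -0.13 to 0.061 for SLC3A2, -0.17 to 0.40 for SLC7A5, -0.080 to 0.042 for SLC38A1, -0.22 to 0.28 for SLC43A1 and -0.17 to 0.24 for SLC1A3. SLC38A1 was also at 0.015 with its probe sets averaged and 0.050 without _s_at probe sets, where another probe set represents it. Of the lists' 13 named genes 13 were called with the block, 9 with it and averaged probe sets, 9 with it and medians centred, 7 with the block and no filter, 8 with it and without replicate 1, 8 without replicate 2, 9 without replicate 3 and 0 without the trend. The size of replicate 1 was also read under settings chosen after seeing the data: SLC1A5 and SLC7A5 passed it under each, and SLC43A1, dim on replicates 2 and 3, did not with a pseudocount of 64 or a filter at percentile 70.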
